A study of Stenocereus queretaroensis with 6 samples.

Results

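The genes described here are those that let a plant cell sense light and keep daily time. They were taken from the table of assembled transcript clusters by the description of each cluster's best Swiss-Prot protein hit. A cluster was a member when that description held the name of a phytochrome, cryptochrome, phototropin, Adagio protein, pseudo-response regulator, CCA1, REVEILLE, GIGANTEA, EARLY FLOWERING, CONSTANS, COP1, FAR-RED or HY5 protein. The rule used names and no measured value, and it took 292 of 170970 clusters. They fall on 61 distinct Swiss-Prot proteins, called hits below, of which 44 come from *Arabidopsis thaliana*. Of the members, 10 were taken because the letters CCA1 stand inside other names (YUCCA1, YUCCA10 and a bacterial secretion protein, EccA1). These 10 are no clock genes and are given apart.

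The RNA came from *Stenocereus queretaroensis*, a columnar cactus, kept as suspension cells. Such cells divide loose in a liquid culture instead of forming organs. They were fed MS medium, which supplies mineral salts, with sucrose at either 3% or 8%, and there were 3 libraries of poly(A) RNA from each. The labels give the species, the medium and the kind of cell, but no light regime, hour of harvest, culture age or genotype, and they do not explain the letters Y (3%) and R (8%) in the sample titles. Nor do they tell if replicate libraries are from different cultures, and the p-values then reflect library-to-library spread alone, which may be technical. Clock transcripts of plants vary over the day, so a difference in harvest time between the media and an effect of sucrose cannot be told apart here. The libraries held 35476032 to 41147265 expected counts each. Replicate 1 at 3% sucrose stood apart from the other 5 libraries on the second principal component (score 192.3 against -100.9 to 40.2, 6.92% of the variance). No pair of replicates agreed within sampling noise, so all 6 libraries were used.

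In plants, phytochromes absorb red and far-red light, and cryptochromes, phototropins and the Adagio proteins (ZEITLUPE and FKF1) absorb blue light. Light acts in part by stopping the ubiquitin ligase COP1 from marking transcription factors such as HY5 for degradation. The clock is a loop of transcription factors. LHY and CCA1 peak around dawn, the pseudo-response regulators follow through the day, and the evening complex of ELF3, ELF4 and LUX acts in the evening, while GIGANTEA and ZEITLUPE set the stability of TOC1 protein. CONSTANS and its relatives are zinc finger proteins with B-boxes and a CCT motif, several of which link day length to flowering. In *Arabidopsis* seedlings, sugars feed back on the clock.

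At 8% sucrose 62 members rose and 89 fell. These counts come from edgeR's quasi-likelihood test with a Benjamini-Hochberg adjusted p under 0.05 over all tested clusters. A low-count filter left 238 members for the test and removed 54, whose mean counts over the 6 libraries were at most 25.8. Of all 85038 tested clusters 29.1% rose and 25.6% fell. These shares are the background for the cluster counts of each family given below. Among the tested members 26.1% rose and 37.4% fell. The rises of members were thus near the background and the falls above it, and among tested clusters that have a Swiss-Prot hit at all, 25.8% rose and 28.7% fell. The falls were uneven over families. The CONSTANS family, with 31 tested clusters, held 22 of the 89, and the clusters given apart, with 6 tested, held 4. Of the called members 55 rose and 66 fell by at least 2-fold. All 3 libraries at 8% sucrose lay above all 3 at 3% for 73 of the 238 tested members, against a background of 36.6%, and below for 104, against 31.0%. The median log2 fold change, 8% over 3%, was -0.16 over tested members and 0.19 over all tested clusters. With library totals in place of composition factors these medians were 0.00 and 0.35, and 65 members rose and 80 fell. Without replicate 1 at 3%, the library that stood apart, 59 members rose and 83 fell, and 133 of the 151 calls held.

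Because a gene's reads can be divided over several clusters, counts were also summed by hit over the whole table and tested in the same way. Of the 57 member hits tested, 19 rose and 32 fell, and 6 did not pass. Over all 13183 tested hits 29.3% rose and 49.0% fell, and the member hits, at 33.3% and 56.1%, were near that background. These shares of all tested hits are also the background for the hit counts of each family given below. The median log2 fold change of all hits was -0.30, and with library totals only it was -0.17. A fall of about that size, such as those of COP1 (-0.36), LUX (-0.29) or REVEILLE 1 (-0.29) below, is close to the middle of the table. The falls of phytochrome A1 (-0.49) and PRR95 (-0.51) lie somewhat beyond it. Gene values below are CPM, counts per 1000000 library counts, summed over all clusters of a hit, on TMM-scaled library sizes. Levels are compared between genes only in the deposited FPKM, which is scaled by cluster length. FPKM summed over clusters can be inflated where a gene is split into short partial clusters. No TMM factor was applied to FPKM, so its ratios between the media differ in scaling from those of CPM.

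**Figure D1:**
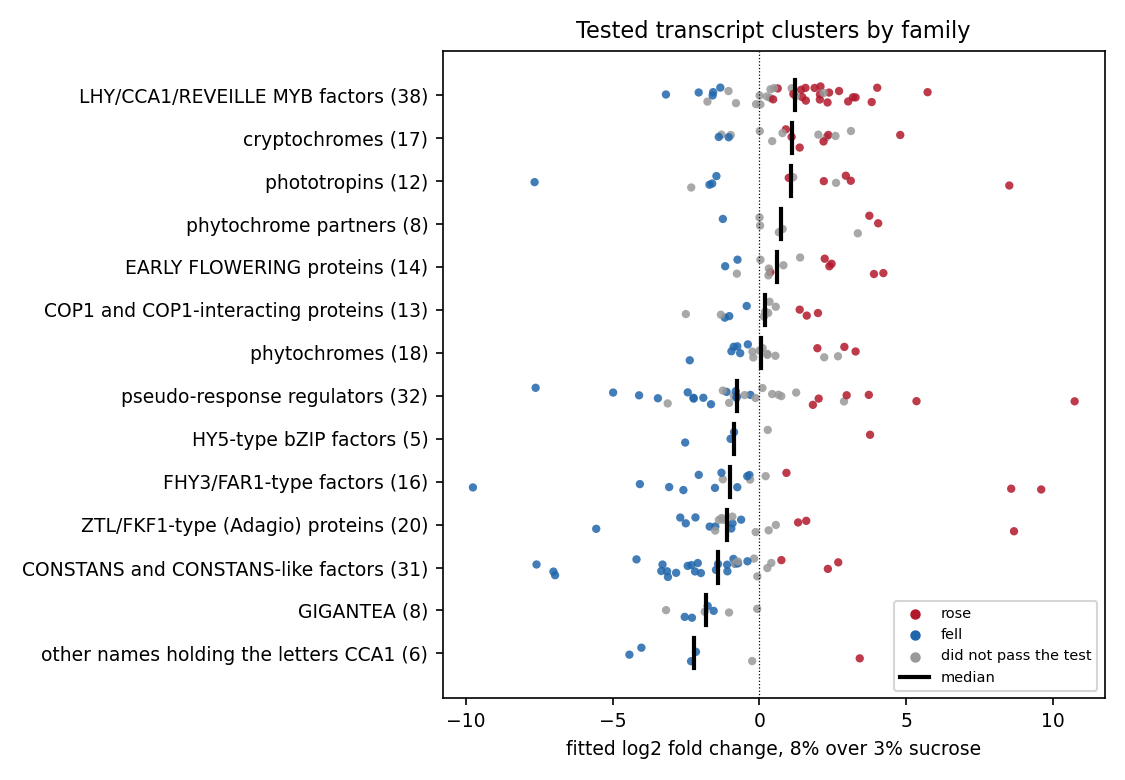
Fitted log2 fold change of each of the 238 tested clusters (x axis, 8% over 3% sucrose), grouped by family with the number tested in brackets. Points are coloured by the test and bars mark family medians. Median bars of GIGANTEA and the CONSTANS family lie below 0 and that of the LHY/CCA1/REVEILLE family lies above 0; points beyond about 7 in size belong mostly to clusters with 0 counts in 1 medium, whose fitted value depends on a prior count.

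The 7 hits of the phytochrome family include the phytochrome A-associated F-box protein, which is not a phytochrome. Of the 7, 4 fell and 1 rose at 8% sucrose, against 49.0% and 29.3% of all tested hits. The F-box protein was among the falls, and the family's cluster counts and total include it. Of 18 tested clusters in the phytochrome family 3 rose and 6 fell, and the family's total went from 220.4 ± 15.5 CPM (SD, n = 3) at 3% to 147 ± 4.21 at 8%. The count that rose was 1 without replicate 2 at 3% and 0 without replicate 1 at 8%, and the median log2 fold change over clusters was near 0, at 0.05, with -0.05 and -0.07 without replicates 2 and 3 at 3%. Phytochrome C, a type that acts mainly with phytochrome B, read 46.3, 51.6 and 47.0 CPM at 3% sucrose. It read 25.5, 24.9 and 25.2 CPM at 8%. The media did not overlap, and the log2 fold change was -0.94 ± 0.06 (SE) with an adjusted p of 5.99e-06. Phytochrome B, the main receptor of plants already grown in light, read 59.8, 71.6 and 62.7 CPM at 3% and 42.6, 44.4 and 43.0 CPM at 8%. All libraries at 8% were below those at 3% (-0.58 ± 0.07, adjusted p = 2.70e-04). Phytochrome A1, whose relatives sense very weak and far-red light, read 87.7, 93.1 and 82.5 CPM at 3% and 59.3, 65.9 and 62.3 CPM at 8%. It was lower in every library at 8% (-0.49 ± 0.06, adjusted p = 3.29e-04). In FPKM the order was phyA, phyB, phyC in both media, at 20.4 ± 1.13, 16.9 ± 0.95 and 10.7 ± 0.38 at 3% (SD, n = 3). At 8% the summed FPKM were 16.5 ± 0.64, 14.9 ± 0.75 and 6.38 ± 0.10, and the libraries of phyA (15.8 to 17.0) and phyB (14.5 to 15.8) then nearly touched, while phyC lay below both.

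Within the phytochrome family, 15 of 19 clusters carried the Pfam phytochrome region, an annotation held by 19 clusters of the whole assembly. The member with the highest FPKM was Cluster-2051.90263, a phytochrome A1 hit of 4638 bp. It read 65.8, 85.6 and 67.4 CPM at 3% and 35.6, 46.8 and 47.4 CPM at 8%, with no overlap (-0.75 ± 0.15, adjusted p = 5.06e-03). Another cluster, Cluster-2051.14791, a phytochrome B hit, went the other way at a very low level, from 0, 0.08 and 0.16 CPM to 1.06, 0.68 and 0.72 CPM. Its call (3.28 ± 0.88, adjusted p = 0.0186) was lost without replicate 2 at 3% and without replicate 1 at 8%. The phytochrome A-associated F-box protein EID1, which dampens phytochrome A signalling in *Arabidopsis*, fell slightly, from 10.3 to 7.90 CPM (-0.38 ± 0.11, adjusted p = 0.0194).

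The cryptochromes split. Cryptochrome-1, a blue-light receptor, read 147, 157 and 140.2 CPM at 3% sucrose and 65.9, 72.3 and 71.7 CPM at 8%. It was lower in all 3 libraries at 8%, with a log2 fold change of -1.08 ± 0.06 (adjusted p = 2.88e-06). A further cryptochrome-1 hit, from white mustard, is a single cluster at a low level that rose. It read 0, 0 and 0.33 CPM at 3% and 2.11, 3.70 and 3.71 CPM at 8% (4.82 ± 0.96, adjusted p = 2.77e-03). The hit named cryptochrome-2 read 38.8, 43.1 and 42.1 CPM at 3% and 193.6, 206.7 and 194.5 CPM at 8%. It was higher in all 3 libraries at 8%, by 2.26 ± 0.06 (adjusted p = 6.04e-08). All 3 clusters of that hit have a best match named cryptochrome-1 in the NR database, so the databases do not settle whether it is CRY2 or a second CRY1 copy. In FPKM the order of the pair was reversed between the media: 44.7 ± 1.98 for cryptochrome-1 and 16.4 ± 0.76 for the cryptochrome-2 hit at 3%, but 25.4 ± 1.88 and 87.3 ± 1.35 at 8%.

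Most of the cryptochrome-2 signal lay in 2 clusters that both rose. Cluster-2051.72399 read 14.2, 14.1 and 13.2 CPM at 3% and 74.5, 67.8 and 68.9 CPM at 8% (2.35 ± 0.07, adjusted p = 1.45e-06). Cluster-2051.63356 went from a mean of 27.6 to 125.5 CPM. Cryptochrome-1 rested mainly on Cluster-2051.106044, at 125.7, 131.3 and 117.9 CPM at 3% and 56.9, 62.8 and 61.5 CPM at 8%. The DASH cryptochromes, which repair DNA damaged by ultraviolet light rather than signal, rose on both of their hits, one from 45.2 to 56.1 CPM (0.31 ± 0.07) and the other from 7.19 to 14.5 CPM (1.01 ± 0.17). In the family of 17 tested clusters 6 rose and 2 fell.

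Among the phototropins, the kinases that steer growth and chloroplast movement by blue light, the hits also differed. Phototropin-1 read 28.2, 28.3 and 26.5 CPM at 3% and 54.3, 54.2 and 65.3 CPM at 8%. Every library at 8% was higher (1.07 ± 0.08, adjusted p = 1.80e-05). Phototropin-2 read 109.9, 128.3 and 122 CPM at 3% and 80.0, 75.0 and 78.6 CPM at 8%, and every library at 8% was lower (-0.63 ± 0.07, adjusted p = 9.84e-05). Its summed FPKM, 87.2 ± 6.51 at 3% and 79.0 ± 4.17 at 8%, moved less than its CPM. Of 12 tested phototropin clusters 5 rose and 4 fell, while the family's total went from 149.6 to 135.8 CPM. Over these clusters the median log2 fold change was 1.08, and it was -1.56 over 16 clusters with no low-count filter. Of those that rose, Cluster-2051.53597 was at 0 in all libraries at 3% and at least 14.9-fold higher at 8%, against a floor of 3 counts in each library.

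Of the Adagio proteins, F-box proteins with a light-sensing PAS fold and Kelch repeats, 2 hits fell and 1 rose. ZEITLUPE (Adagio 1), which targets TOC1 protein for degradation, read 59.5, 69.8 and 56.5 CPM at 3% and 37.0, 37.97 and 33.1 CPM at 8% (-0.78 ± 0.09, adjusted p = 1.78e-04). FKF1 (Adagio 3), which removes repressors of CONSTANS in *Arabidopsis*, read 100.3, 107.2 and 102.8 CPM at 3% and 43.2, 46.1 and 43.4 CPM at 8% (-1.23 ± 0.05, adjusted p = 6.16e-07). Neither gene's media overlapped. The single cluster with an Adagio 2 hit (LKP2, a close relative of both) rose at a very low level, from 0.10 to 0.32 CPM (1.62 ± 0.54, adjusted p = 0.0286). Of 20 tested Adagio clusters 3 rose and 9 fell. The rises were 2 under DESeq2 and on leaving out any library other than replicate 1 at 3%. Of the family's 22 clusters 16 carried a PAS annotation and 13 a Kelch annotation. The cluster with the highest FPKM and the smallest adjusted p among the falls was Cluster-2051.89194, an FKF1 hit at 43.5, 51.7 and 44.9 CPM and then 25.9, 23.6 and 22.5 CPM. The ZEITLUPE Cluster-2051.16253 was at 0 in every library at 3% and read 1.24, 0.96 and 1.94 CPM at 8%, at least 16.6-fold higher.

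**Figure D2:**
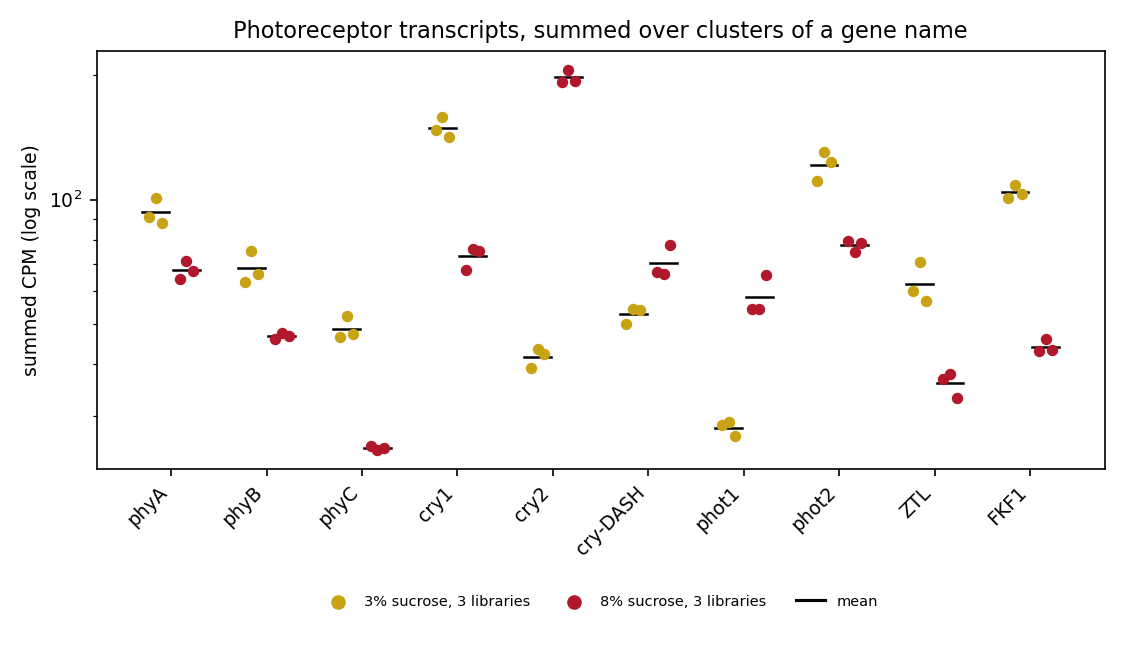
Summed CPM (y axis, log scale) of each photoreceptor gene name in each of the 6 libraries, with black bars at group means. Points at 8% sucrose lie below those at 3% for phyA, phyB, phyC, cry1, phot2, ZTL and FKF1, and above for cry2, cry-DASH and phot1; cry2 spans 41.7 to 197.5 CPM between group means. Sums pool every hit of a gene name, so they differ slightly from single-hit values.

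Set in order by summed FPKM at 3% sucrose, the red- and blue-light receptor names and cry-DASH began with phot2 (87.2) and FKF1 (59.3), followed by cry1 (44.7), cry-DASH (25.6), ZTL (23.9), phyA (20.4), phyB (16.9), the cry2 hit (16.4), phyC (10.7) and phot1 (8.58). The libraries of cry-DASH and ZTL overlapped, as did those of phyB and the cry2 hit. Median cluster lengths differed between families, at 1423 bp for phototropins, 2450 bp for cryptochromes, 2606 bp for Adagio proteins and 4255 bp for phytochromes. How far splitting into short clusters set this order was not tested. At 8% sucrose the cry2 hit (87.3) lay above phot2 (79.0) with no overlap, cry1 (25.4) and FKF1 (25.3) overlapped, and phyC (6.38) was lowest.

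COP1, the ubiquitin ligase that holds light responses down in darkness, read 83.9, 88.3 and 86.8 CPM at 3% and 66.8, 67.6 and 67.2 CPM at 8%. The media did not overlap, and the log2 fold change of -0.36 ± 0.05 (adjusted p = 2.59e-04) was close to the median of all hits. Its 16 clusters held 3 that rose and 3 that fell. The rises were 1 without replicate 1 at 3%, 0 without replicate 3 at 3% and 1 without replicate 3 at 8%, where 5 fell. Cluster-2051.13330 fell from a mean of 17.1 to 7.51 CPM. The cluster with the highest FPKM, Cluster-2051.47700, fell by 0.43 on the log2 scale (adjusted p = 0.0195). That call was lost with library totals alone and with replicate number as a block. Cluster-2051.94462 rose by 1.37 ± 0.34 (adjusted p = 0.0136), a call lost without replicate 3 at 3%.

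HY5, the bZIP factor that COP1 marks for degradation and that drives greening, was lower. It read 31.4, 33.8 and 34.9 CPM at 3% and 8.39, 10.99 and 9.13 CPM at 8%. Every library at 8% lay far below those at 3% (-1.81 ± 0.11, adjusted p = 3.56e-06). The leading HY5 cluster, Cluster-2051.17745, read 21.3, 23.9 and 25.5 CPM and then 3.78, 4.18 and 4.24 CPM. The HY5 homolog HYH stood at 0.23 CPM at 3% and 0.98 at 8%, near the floor of 0.0776 to 0.0883 CPM that 3 counts correspond to. Its hit rose (2.07 ± 0.54, adjusted p = 0.0101). The call of its Cluster-2051.14628 was lost on leaving out any library other than replicate 1 at 3%. It was also lost with no low-count filter and with replicate number as a block.

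FHY3 and FAR1, transposase-derived factors that switch on the import of phytochrome A into the nucleus, were lower as well. FHY3 read 164.4, 189.6 and 176.5 CPM at 3% and 67.2, 75.3 and 69.6 CPM at 8% (-1.32 ± 0.07, adjusted p = 1.79e-06). FAR1 read 76.7, 70.8 and 78.3 CPM at 3% and 41.4, 41.3 and 45.4 CPM at 8% (-0.82 ± 0.06, adjusted p = 1.67e-05). In both genes the media were separate. FHY1, the carrier that takes phytochrome A into the nucleus, went from 54.3 to 37.98 CPM (-0.51 ± 0.06, adjusted p = 1.75e-04). Of 16 tested clusters in this family 3 rose and 10 fell. Single FAR1 clusters switched between the media: Cluster-2051.96349 was at 0 at 3% and at least 31.7-fold higher at 8%, whereas Cluster-2051.103225 was at 0 at 8% and at least 37.2-fold lower there. The phytochrome-associated phosphatase, which removes phosphate from phytochromes in *Arabidopsis*, fell from 81.3 to 46.0 CPM (-0.82 ± 0.05, adjusted p = 4.82e-06).

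GIGANTEA and TOC1, both evening genes in *Arabidopsis*, went opposite ways. GIGANTEA read 192.1, 214.3 and 197.2 CPM at 3% sucrose and 53.6, 58.2 and 56.8 CPM at 8%. All libraries at 8% were far below those at 3% (-1.84 ± 0.06, adjusted p = 1.64e-07), and none of its 8 tested clusters rose while 4 fell. TOC1, the pseudo-response regulator that closes the loop by repressing LHY and CCA1, was matched by 2 hits. Its main hit, rice PRR1, read 14.1, 14.6 and 13.2 CPM at 3% and 58.8, 61.7 and 58.1 CPM at 8%, higher in every library (2.09 ± 0.06, adjusted p = 1.08e-07). The *Arabidopsis* APRR1 hit, a single cluster whose NR match is named timing of CAB expression 1, read 0, 0 and 0.14 CPM at 3% and 1.93, 2.22 and 1.92 CPM at 8%. Among the rice PRR1 clusters, Cluster-2051.70015 was at 0 at 3% and at least 70.1-fold higher at 8%.

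The other pseudo-response regulators, repressors that act in turn from morning to evening, were mostly lower. APRR9 read 123.3, 135.8 and 125.6 CPM at 3% and 71.4, 77.6 and 77.5 CPM at 8% (-0.76 ± 0.06, adjusted p = 1.64e-05). PRR73 read 78.1, 80.9 and 76.6 CPM at 3% and 46.2, 47.5 and 46.1 CPM at 8% (-0.75 ± 0.05, adjusted p = 5.29e-06). Neither showed overlap between the media. PRR95 fell by less, from 32.4 to 22.7 CPM (-0.51 ± 0.09, adjusted p = 1.81e-03), and all 7 of its clusters are named APRR5 in NR. APRR5 rose from 3.32 to 5.64 CPM (0.76 ± 0.23, adjusted p = 0.0194), with none of its clusters called alone. APRR2, a relative that is not one of the clock repressors of *Arabidopsis*, fell from 49.0 to 25.2 CPM (-0.96 ± 0.06, adjusted p = 2.83e-06), with 7 of its 11 clusters called lower. Over the family of 32 tested clusters 6 rose and 14 fell, and 33 of all 38 clusters carried a receiver domain and 17 a CCT motif.

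**Figure D3:**
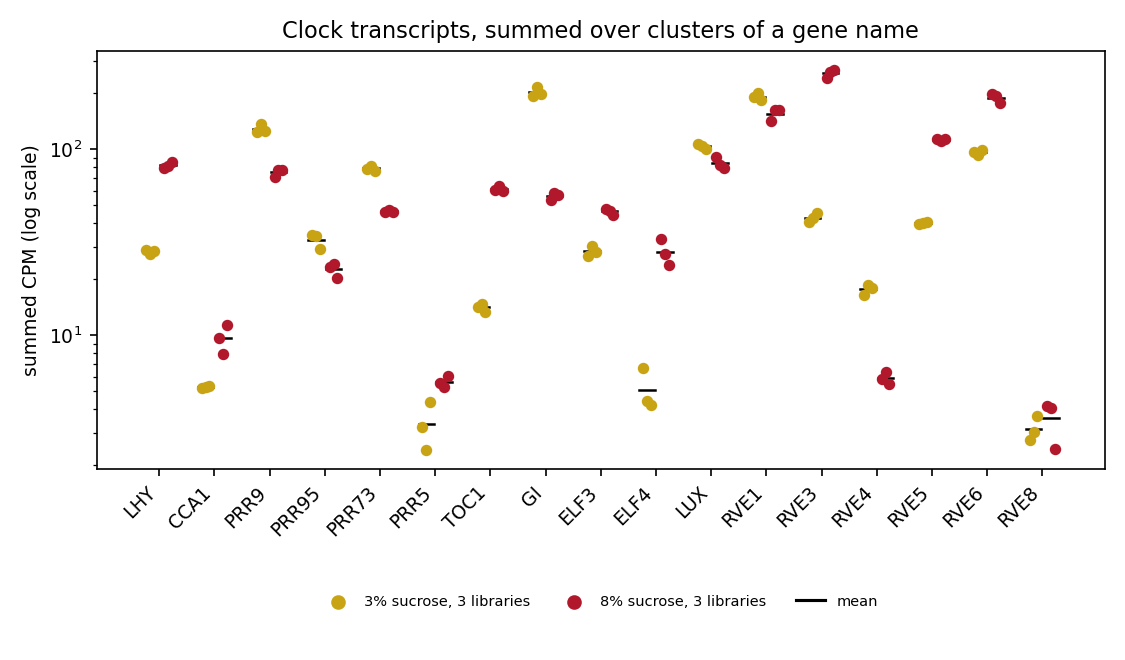
Summed CPM (y axis, log scale) of each clock gene name in each of the 6 libraries, with black bars at group means. GI stands at 202.9 CPM at 3% and 56.0 at 8% sucrose, TOC1 at 14.2 and 61.3, LHY at 28.3 and 82.1 and RVE3 at 42.9 and 257; the RVE8 points of the media overlap.

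The REVEILLE proteins, MYB factors related to LHY and CCA1, gave the largest number of rises among the member families. Of 38 tested clusters in the family with CCA1, the most of any member family, 20 rose and 5 fell. That is 52.6% and 13.2%, against 29.1% and 25.6% of all tested clusters. REVEILLE 3 and REVEILLE 6 gave 8 and 6 of the 20 rises. The family's summed level went from 398.6 ± 6.97 CPM at 3% to 734.4 ± 15.8 at 8%. REVEILLE 3 read 40.2, 42.3 and 45.02 CPM at 3% and 244.7, 260.2 and 269.1 CPM at 8%. All libraries at 8% were above those at 3% (2.60 ± 0.06, adjusted p = 4.61e-08), and 8 of its 9 clusters rose. REVEILLE 5 read 39.3, 39.6 and 40.5 CPM at 3% and 114, 110.9 and 114.4 CPM at 8% (1.51 ± 0.05, adjusted p = 1.10e-07). REVEILLE 6 read 96.4, 92.7 and 99.1 CPM at 3% and 199.8, 193.1 and 178.3 CPM at 8% (0.99 ± 0.06, adjusted p = 3.06e-06). Both were higher in every library at 8%. REVEILLE 3, 5 and 6 belong, with 4 and 8, to the branch that activates evening genes in *Arabidopsis*.

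Not every REVEILLE followed. REVEILLE 4 read 16.4, 18.5 and 17.9 CPM at 3% and 5.84, 6.38 and 5.52 CPM at 8%, lower in every library (-1.57 ± 0.10, adjusted p = 5.25e-06). Both of its clusters are named REVEILLE 8 in NR. The hit named REVEILLE 8 had overlapping media, at 2.72, 2.97 and 3.71 CPM and 4.22, 4.08 and 2.46 CPM, and did not pass the test (0.20 ± 0.26, adjusted p = 0.522). Its summed FPKM went the other way without overlap, at 26.8, 32.8 and 28.5 at 3% and 19.6, 12.3 and 11.3 at 8%, and was not tested. REVEILLE 1, which links the clock to auxin, fell slightly as a sum, from 190.9 to 156.4 CPM (-0.29 ± 0.07, adjusted p = 6.04e-03), about as much as the median of all hits and with no call under library totals alone. The cluster with the highest FPKM of the family was Cluster-2051.79911, a REVEILLE 3 hit of 534 bp, at 106.1 FPKM at 3% and 498.4 at 8%. Another, Cluster-2051.82760 with a REVEILLE 5 hit, read 12.3, 13.4 and 12.0 CPM at 3% and 81.3, 81.2 and 85.4 CPM at 8%.

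CCA1 itself was low. Its hit read 5.23, 5.24 and 5.29 CPM at 3% and 9.74, 7.97 and 11.4 CPM at 8%, higher in every library (0.89 ± 0.15, adjusted p = 1.26e-03). Of its 5 clusters, 3 have an uncharacterised NR match, 1 an elongator subunit and 1 a protein named CCA1, so its name is uncertain. LHY, the closest partner of CCA1, was not taken by the rule because its Swiss-Prot description is only Protein LHY. It read 28.7, 27.2 and 28.4 CPM at 3% and 80.2, 81.5 and 85.7 CPM at 8%. It was higher in every library (1.55 ± 0.05, adjusted p = 1.93e-07), with 5 of 11 tested clusters higher and none lower. LHY and TOC1, which repress each other in *Arabidopsis* and peak at opposite times of day there, were both higher at 8%.

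The evening complex, which represses growth genes in the early night, did not move as one. ELF4 read 6.63, 4.36 and 4.20 CPM at 3% and 33.1, 27.5 and 24.0 CPM at 8%, all above (2.48 ± 0.20, adjusted p = 1.98e-05). ELF3, the scaffold of the complex, read 26.4, 30.1 and 27.9 CPM at 3% and 48.4, 47.0 and 44.6 CPM at 8% (0.73 ± 0.07, adjusted p = 4.25e-05). LUX, its DNA-binding member, read 106.8, 103.3 and 100.3 CPM at 3% and 92.2, 82.3 and 79.3 CPM at 8% (-0.29 ± 0.07, adjusted p = 5.57e-03). The fall of LUX is that of the median hit, and in summed FPKM its mean was 66.4 ± 2.40 at 3% and 73.9 ± 11.9 at 8%, which overlap. The rule also took PHOTOPERIOD-INDEPENDENT EARLY FLOWERING 1, a chromatin remodeller outside the complex, which fell from 72.7 to 56.8 CPM (-0.36 ± 0.08, adjusted p = 4.12e-03). With its clusters included, 14 clusters named EARLY FLOWERING were tested, of which 6 rose and 2 fell, and 3 rose without replicate 3 at 3%.

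The CONSTANS-LIKE proteins (COL) held the largest number of falls among the member families. Of 31 tested clusters 22 fell and 3 rose. That is 71.0% and 9.68%, against 25.6% and 29.1% of all tested clusters. The family's clusters together held 952.6 ± 18.7 CPM (SD, n = 3) at 3% and 336.6 ± 1.94 at 8%. Of the family's 38 clusters 20 carried a B-box and 30 a CCT motif. COL4 read 395.2, 400.6 and 392.6 CPM at 3% and 136.2, 126.4 and 121.6 CPM at 8% (-1.63 ± 0.05, adjusted p = 1.57e-07). COL10 read 283, 256.9 and 256.2 CPM at 3% and 69.0, 70.5 and 74.5 CPM at 8% (-1.90 ± 0.06, adjusted p = 1.26e-07). Both were lower in every library at 8%. COL13 read 179.1, 176.2 and 174.6 CPM at 3% and 82.5, 91.1 and 89.8 CPM at 8% (-1.01 ± 0.05, adjusted p = 1.67e-06).

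COL16 fell the most. It read 37.5, 34.7 and 37.7 CPM at 3% sucrose and 0.31, 0.27 and 0.31 CPM at 8%. Its log2 fold change was -6.92 ± 0.11 (adjusted p = 1.14e-08), and all 3 of its clusters fell. The leading one, Cluster-2051.131389, read 33.6, 30.4 and 33.1 CPM and then 0.26, 0.27 and 0.23 CPM. COL2 fell from 14.4 to 5.19 CPM (-1.47 ± 0.13) and COL5 from 9.04 to 3.73 CPM (-1.28 ± 0.17). COL8 rose at a low level, from 0.43 to 1.33 CPM (1.63 ± 0.45, adjusted p = 0.0136). COL15 differed little, from 45.6 to 39.9 CPM (-0.19 ± 0.05, adjusted p = 0.0149), with no call under library totals alone. The highest mean FPKM of all members was that of Cluster-2051.75959, a COL10 hit of 720 bp, at 492.2 at 3% and 127.4 at 8%. The hits COL1 and COL3 had too few counts to be tested, and no hit to CONSTANS itself was among the members.

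**Figure D4:**
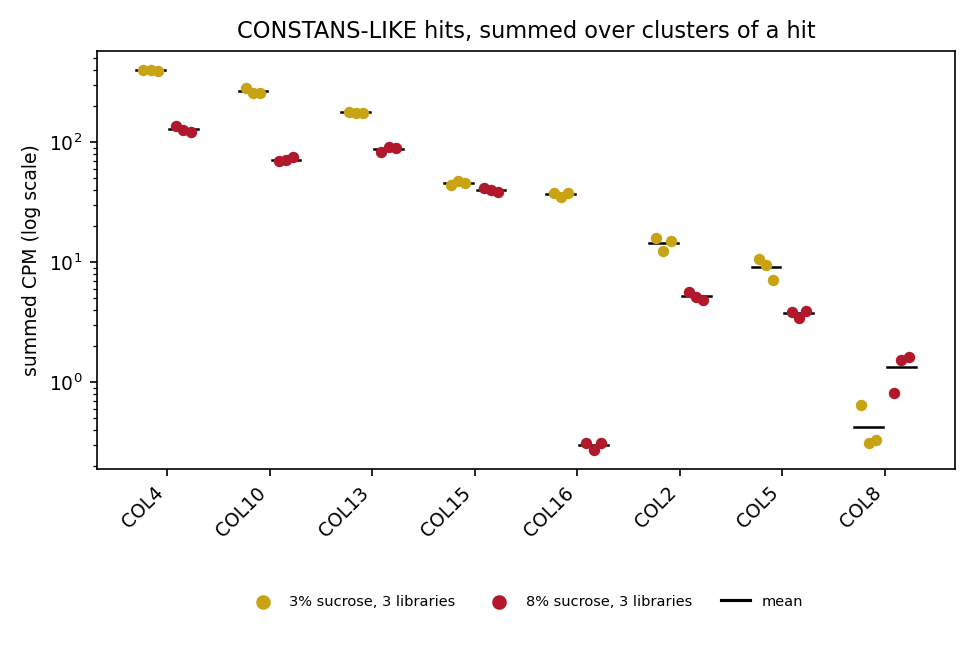
Summed CPM (y axis, log scale) of the 8 tested CONSTANS-LIKE hits in each of the 6 libraries, ordered by their mean at 3% sucrose, with black bars at group means. COL16 lies at 34.7 to 37.7 CPM at 3% and 0.27 to 0.31 CPM at 8%, while COL15 lies at 43.9 to 47.0 and 38.5 to 41.1 CPM.

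Clusters of 1 hit could go opposite ways. Of 43 member hits with at least 2 tested clusters, 14 held both a cluster that rose and a cluster that fell. The same share over all hits was not counted. As 54.6% of all tested clusters were called in either direction, the 14 are not read as a trait of these genes. In phototropin-2, Cluster-2051.84651 fell from 60.4 ± 7.83 to 18.5 ± 2.35 CPM (SD, n = 3), and Cluster-2051.60632 and Cluster-2051.64011 fell alongside it. Cluster-2051.71704 rose from 6.76 ± 1.05 to 31.0 ± 3.18 CPM, and its NR match is a LOV domain of *Arabidopsis* phototropin 2 whereas the falling clusters match predicted phototropin-2 proteins. In REVEILLE 1, Cluster-2051.72091 fell from 98.6 ± 4.22 to 10.8 ± 2.54 CPM while Cluster-2051.72059 rose from 10.8 ± 2.50 to 56.0 ± 5.31 CPM. The falling REVEILLE 1 clusters are named REVEILLE 2 in NR, and 2 of the 3 rising ones REVEILLE 1. In PRR95, Cluster-2051.120457 fell from 17.4 ± 2.44 to 4.61 ± 0.69 CPM and Cluster-2051.24455 rose from 3.40 ± 0.79 to 13.8 ± 0.97 CPM, with the NR name APRR5 for both. Whether such clusters are separate genes, alleles or splice forms, or reads divided differently between near-identical sequences, was not tested.

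**Figure D5:**
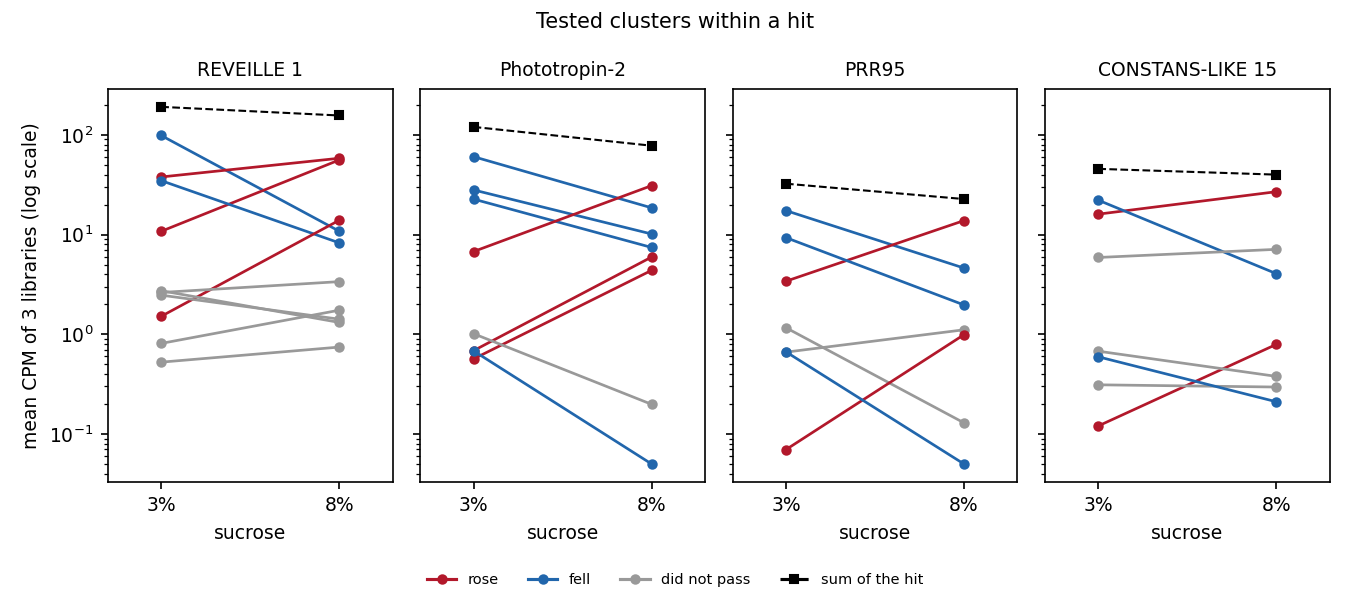
Mean CPM of 3 libraries (y axis, log scale) at 3% and 8% sucrose for each tested cluster of 4 hits, coloured by the test, with the sum of the hit dashed. Means of 0 are drawn at 0.05. In REVEILLE 1 the sum changes from 190.9 to 156.4 CPM while single clusters cross, from 98.6 to 10.8 and from 10.8 to 56.0 CPM.

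A list of other light and clock genes outside the rule, given as name patterns, held 704 clusters, of which 509 were tested, 152 rose and 132 fell. Its cluster shares, 29.9% and 25.9%, were near those of the whole table. By hit, 39 of 97 tested rose and 46 fell, which is 40.2% and 47.4%, against 29.3% and 49.0% of all tested hits. The LNK proteins, coactivators that work with the REVEILLEs, were divided. LNK3 rose from 15.98 to 86.9 CPM (2.44 ± 0.08, adjusted p = 1.28e-07) and LNK1 from 125.2 to 154.8 CPM (0.31 ± 0.05). LNK2 fell from 112.6 to 35.9 CPM (-1.65 ± 0.10, adjusted p = 2.92e-06). TIME FOR COFFEE, which acts near LHY in the *Arabidopsis* clock, fell from 352.1 to 142.7 CPM (-1.30 ± 0.09). The cycling DOF factor CDF2, a target of FKF1 and GIGANTEA, fell from 147.9 to 62.7 CPM (-1.24 ± 0.21). Of its 7 clusters 2 rose and 3 fell. CDF3 rose slightly, from 42.55 to 52.4 CPM (0.30 ± 0.06).

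Of the factors that phytochromes act on, PIF3, a bHLH repressor of greening, fell from 51.6 to 18.8 CPM (-1.45 ± 0.07, adjusted p = 9.90e-07). SPATULA, a bHLH relative of the PIFs known from fruit and seed development, read 1.14, 1.08 and 1.04 CPM at 3% and 97.3, 88.8 and 89.3 CPM at 8%. The media lay far apart (6.40 ± 0.08, adjusted p = 9.48e-09). Of the SPA proteins, which form the COP1 ligase, SPA1-RELATED 2 rose (47.9 to 70.5 CPM) and SPA1, SPA1-RELATED 3 and 4 fell. DET1, another repressor of light responses, rose from 29.6 to 64.2 CPM (1.12 ± 0.06, adjusted p = 1.77e-06). Among the 12 hits of DET1 and COP9 signalosome subunits 8 fell and 2 rose, against 49.0% and 29.3% of all tested hits. Subunit 3 went from 64.6 to 27.5 CPM. The B-box factors divided evenly, with 4 hits higher and 4 lower. BBX32 fell from 23.7 to 1.65 CPM (-3.83 ± 0.19) and BBX24 rose from 201.5 to 244.3 CPM (0.28 ± 0.04).

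The FAR1-RELATED SEQUENCE proteins, relatives of FHY3 and FAR1, had 43 of 98 tested clusters higher and 10 lower. That is 43.9% and 10.2%, against 29.1% and 25.6% of all tested clusters, the background for the other counts in this paragraph too. FAR1-RELATED SEQUENCE 5, with 77 clusters, went from 118.9 to 179.1 CPM (0.59 ± 0.05, adjusted p = 3.43e-05), while FHY3 and FAR1 themselves fell. The ultraviolet-B receptor hit UVR8 gathered 43 clusters and may hold several genes. It went from 472.8 to 602.2 CPM (0.35 ± 0.04), while its summed FPKM were 267.8 ± 3.18 at 3% and 274.8 ± 5.28 at 8%. Of its 35 tested clusters 10 rose and 10 fell, 28.6% each. The falls were 6 without replicate 3 at 3% and likewise without replicate 1 at 8%. The group of phytochrome chromophore enzymes also takes a probable inactive heme oxygenase 2, which held 1 of its falls. In this group 4 of 14 tested clusters rose and 4 fell, 28.6% each. The rises were 1 without replicate 2 at 3% and 1 without replicate 2 at 8%. One heme oxygenase 1 hit rose from 50.4 to 68.8 CPM while the other fell from 65.1 to 49.5 CPM. Phytochromobilin:ferredoxin oxidoreductase rose from 6.12 to 11.03 CPM (0.85 ± 0.13), and the inactive heme oxygenase 2 fell from 3.32 to 0.41 CPM. Casein kinase II subunits, which phosphorylate CCA1 in *Arabidopsis*, had 8 of 38 tested clusters higher and 8 lower. At 21.05% each, both shares were below those of the whole table. The NPH3 group, which works with phototropins but whose name pattern also takes many other BTB/POZ proteins, had 31 of 120 higher and 37 lower. That is 25.8% and 30.8%. MOTHER of FT and TFL1 homolog 1, of the family of the flowering signal FT, rose from 7.11 to 30.1 CPM (2.08 ± 0.07). The hit named MOTHER of FT and TFL1 went the other way, from 8.60 to 2.47 CPM (-1.80 ± 0.27).

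The 10 clusters taken only by the letters CCA1 had 6 tested, of which 1 rose and 4 fell (0 rose without replicate 2 at 8%). Most of their signal was YUCCA10, an auxin biosynthesis enzyme, at 333.1, 412.9 and 379.7 CPM at 3% and 91.0, 102.2 and 108.6 CPM at 8%, lower in every library (-1.90 ± 0.10, adjusted p = 1.38e-06). Without these 10 the members are 282, with 232 tested, 61 that rose and 85 that fell.

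As the authors' deposited table has it, 67 of the 292 members were called up and 91 down at 8%. Of the 151 members called here, 140 had the same call in the authors' deposited table, 11 had none and 0 the opposite.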

How the data were processed

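Members, families, the partner list and the rule for named clusters were chosen with earlier results of these data known. The submitters' processing notes name FastQC, Trimmomatic 0.36, Bowtie2 and RSEM, and an assembler is not given in the sources used here. The authors deposited an expected count for each cluster in each library, per the file headers, with fractions of the kind RSEM estimates. The authors' FPKM, per the file headers, scale fragments by cluster length and library size. They served to set levels of different genes side by side and to choose named clusters, and for some genes they are given for both media. The TMM factors behind CPM (0.935 to 0.965 at 3%, 1.039 to 1.074 at 8%) were not applied to them. FPKM and CPM ratios between the media therefore differ in scaling. The authors' log2 ratio and q-value, per the file headers, served only to count their calls. Cluster lengths and protein hits with their scores are as the authors deposited them.

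Expected counts were rounded and filtered with filterByExpr. They were then scaled by TMM and tested with edgeR 4.0.16 (R 4.3.3, quasi-likelihood, no covariate, Benjamini-Hochberg over all tested clusters), and again after summing by hit. SE is the size of the log2 fold change over the square root of F. Folds against a group at 0 are lower bounds against 3 counts in each library, and floors cover counting error only. On simulated data with 85038 clusters the cluster test recovered 26 of 100 clusters changed 2-fold and 67 of 100 changed 4-fold, and called 2 unchanged ones. Only 200 simulated clusters were changed, whereas 46458 were called in the data. The Benjamini-Hochberg adjustment was thus stricter in the simulation, and its figures do not give the recovery or false calls of the test as used. The library kit named in the labels does not mark strand, so antisense reads are not separated. Named clusters are, in each family, the one with the highest mean FPKM and the ones that rose and fell with the smallest adjusted p. Hits with the highest summed CPM and the leading call of each partner family are added, and the remaining hits and clusters were named after their values were seen. Same-numbered libraries did not deviate together (r of 0.0312, 0.0044 and 0.0134 across clusters), so the numbers were not taken as pairs. The alternatives were DESeq2 1.42.0, RLE factors, library totals only, other filters, no rounding, a replicate block and leaving out each library. No sequence was used. Figures were drawn with matplotlib 3.10.9.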

Additional observations from a re-analysis of the deposited data

How the results depend on the processing

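Under DESeq2, RLE factors, library totals only, no low-count filter, at least 10 counts in 3 libraries, unrounded counts, the replicate block and each left-out library, no count of members, hits or partners moved by more than 1.5 times. Of the 151 called members, between 129 and 150 kept their call in each setting and 0 were called in the opposite direction. With the replicate block 48 members rose and 81 fell. Leaving out each library in turn gave 51 to 59 members that rose and 81 to 87 that fell, with hits at 16 to 17 and 32 to 32 and partners at 126 to 143 and 116 to 125. Of 1001 values of 77 named clusters and hits under these settings, 16 lost their call, 0 gained one and 0 changed sign. The lost calls were those of COP1 (Cluster-2051.47700 and Cluster-2051.94462), HYH, phytochrome B (Cluster-2051.14791), EccA1 (Cluster-2051.33358) and the hits REVEILLE 1 and COL15. The cause was not tested. HYH, at 0.23 CPM at 3% sucrose, lies close to the floor of 3 counts, below which a level was not detectable at this depth.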
